A study of Mus musculus with 12 samples.

Results

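Desmosomes are the spot-like junctions that tie epithelial cells to one another and anchor their keratin filaments. This account follows 10 desmosome genes, taken by symbol from a raw count table of 23337 gene symbols: Dsp, Ppl and Evpl (plakins), Dsg2, Dsg3, Dsc2 and Dsc3 (desmosomal cadherins), and Pkp1, Pkp2 and Pkp3 (plakophilins). The rule names symbols and uses no measured value, although the list was drawn up with earlier results of these data known, and all 10 symbols were found. Of these, 9 passed the filter on low counts and were tested, and Dsc3 did not pass.

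RNA was sequenced in 12 libraries of NU1, a line of normal mouse urothelial cells that became immortal through repeated passaging. The libraries form 4 groups of 3. Proliferating control cells carried the hairpin labelled shNT and genotype WT, and proliferating knockdown cells carried the hairpin labelled sh4, genotype Stag2-KD. Quiescent control and quiescent knockdown cells carried the same hairpins, were grown to confluence and then kept with 1 µM rosiglitazone and 0.5 µM erlotinib in the same complete medium, and were labelled day 7. Of these drugs, rosiglitazone is an agonist of PPAR gamma, a nuclear receptor, and erlotinib inhibits the EGF receptor kinase. The medium of all groups held serum and EGF. All hairpins were delivered by lentivirus, 1 hairpin represents the knockdown, and 1 cell line represents the urothelium. Confluence, rosiglitazone, erlotinib and time in culture changed together between the states, so their parts cannot be told apart. Each of the experiments numbered 5, 7 and 9 gave 1 library of every group, and the labels give each experiment a batch of its own. The labels do not say how the cultures of different experiments were kept apart, so p-values measure the spread between these libraries.

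In a desmosome the cadherins, desmogleins and desmocollins, bind those of the neighbouring cell. Plakoglobin and the plakophilins bind the cadherin tails inside the cell, and desmoplakin, the product of Dsp, links them to keratin filaments. Periplakin (Ppl) and envoplakin (Evpl) are related plakins that pair with each other and are found at desmosomes and in the cornified envelope of stratified epithelia. The urothelium is a stratified lining that is stretched as the bladder fills, and its cells are joined by desmosomes in all layers. Cohesin, of which STAG2 is a subunit, holds sister chromatids together and shapes chromatin loops.

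Dsp was the member with the most counts and was higher in quiescent cells of both hairpins. It was also the only member matched in the promoter table used, so the 250 bases before its start are shown. They come from the RefSeq promoter table of build GRCm38.p6, chr13:38151044-38151293 on the plus strand, which matched 1 of the 10 members. Capitals mark GGGCGG read on either strand, the core of the GC box that SP and KLF family factors bind.
Dsp: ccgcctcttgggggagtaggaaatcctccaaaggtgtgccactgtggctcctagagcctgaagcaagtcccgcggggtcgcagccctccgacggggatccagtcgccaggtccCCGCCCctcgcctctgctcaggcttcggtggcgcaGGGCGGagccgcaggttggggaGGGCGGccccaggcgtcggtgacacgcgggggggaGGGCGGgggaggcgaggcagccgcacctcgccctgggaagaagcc
The window is 72.4% G or C and holds 4 matches, which begin 137, 102, 80 and 45 bases before the start. At least 1 match is present in 32.7% of the 32851 promoter windows of that length in the table. Searched on both strands, 4 other motifs gave 0 matches in the Dsp window. The E-box of SNAI and ZEB factors, CAGGTG, occurs in 17.2% of windows, and the E-box of MYC and USF factors, CACGTG, in 6.02%. The AP-1 site, TGACTCA, occurs in 4.46% of windows, and the core bound by grainyhead-like factors, AACCGG, in 5.62%. The searched motifs do not overlap one another in the window, and a match is a description of letters only.

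The genes lie on 6 chromosomes in GENCODE M21 (GRCm38). Dsp is at chr13:38151294-38198577 on the plus strand. The 4 cadherin genes share a cluster at chr18:19960930-20604521, with Dsc3 and Dsc2 on the minus strand and Dsg3 and Dsg2 on the plus strand. Pkp1 is at chr1:135871395-135919207 (minus), Pkp2 at chr16:16213318-16272712 (plus) and Pkp3 at chr7:141078218-141090510 (plus). Ppl is at chr16:5086291-5132421 (minus) and Evpl at chr11:116220559-116238077 (minus). Exons of Dsp overlap those of Gm10129 on the other strand by 499 bases, and exons of Dsg2 overlap those of the antisense gene Gm16090 by 330 bases. Whether counting used strand is not given in the sources used here, so reads in those overlaps cannot be assigned.

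Levels are given as CPM, each count scaled to a common TMM-adjusted library total, and library totals ran from 14524429 to 21987539 counts. Stag2, the targeted gene, averaged 133 ± 17.4 CPM (SD, n = 3) in proliferating control and 27.6 ± 4.96 CPM in proliferating knockdown cells. Quiescent control cells held 121 ± 11.3 CPM (SD, n = 3) of it and quiescent knockdown cells 12.1 ± 2.95 CPM, and every knockdown library was below every control library. The epithelial markers Epcam (391 to 888 CPM), Cdh1 (652 to 2311 CPM) and Krt8 (3493 to 9042 CPM) were high in every library. The basal markers Krt5 and Krt14 stayed at or below 10.6 CPM, Trp63 had 0 counts in all 12 libraries, and no uroplakin, the defining proteins of the urothelial surface, exceeded 8.91 CPM. Krt20, a keratin of the urothelial surface layer, was at 534 to 1738 CPM. The 18 urothelial and epithelial markers, of which 16 exceeded 1 CPM in at least 1 library, summed to between 13301 and 18914 CPM in proliferating control and 15942 and 17693 CPM in proliferating knockdown cells. In quiescent cells the sum ran from 12954 to 19555 CPM in control and from 22097 to 23610 CPM in knockdown cells. Summed fibroblast markers reached at most 2.27 CPM, immune 0.762 CPM, endothelial 0.239 CPM and smooth muscle 0.408 CPM.

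The first comparison asked which desmosome genes differed between quiescent and proliferating control cells. Dsp, Evpl and Dsc2 rose, by 1.65-fold, 1.79-fold and 2.27-fold, and Pkp1 fell, to 0.494 of its proliferating level. Counts were tested with edgeR's quasi-likelihood test over 12406 genes, and a gene was called at a Benjamini-Hochberg adjusted p under 0.05. Of the 9 tested members, 3 were called higher, where 8.33% of all tested genes were, and 1 was called lower, where 11.7% were. The median log2 fold change of the 9 members was 0.62, and that of all tested genes was 0.0047. A fit with experiment as a block called 4 members higher, adding Ppl, and 1 lower, and in it 16.8% of all genes were higher and 18.5% lower. These are bulk RNA values, in which fewer cells of a type and less RNA per cell cannot be told apart.

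**Figure D1:**
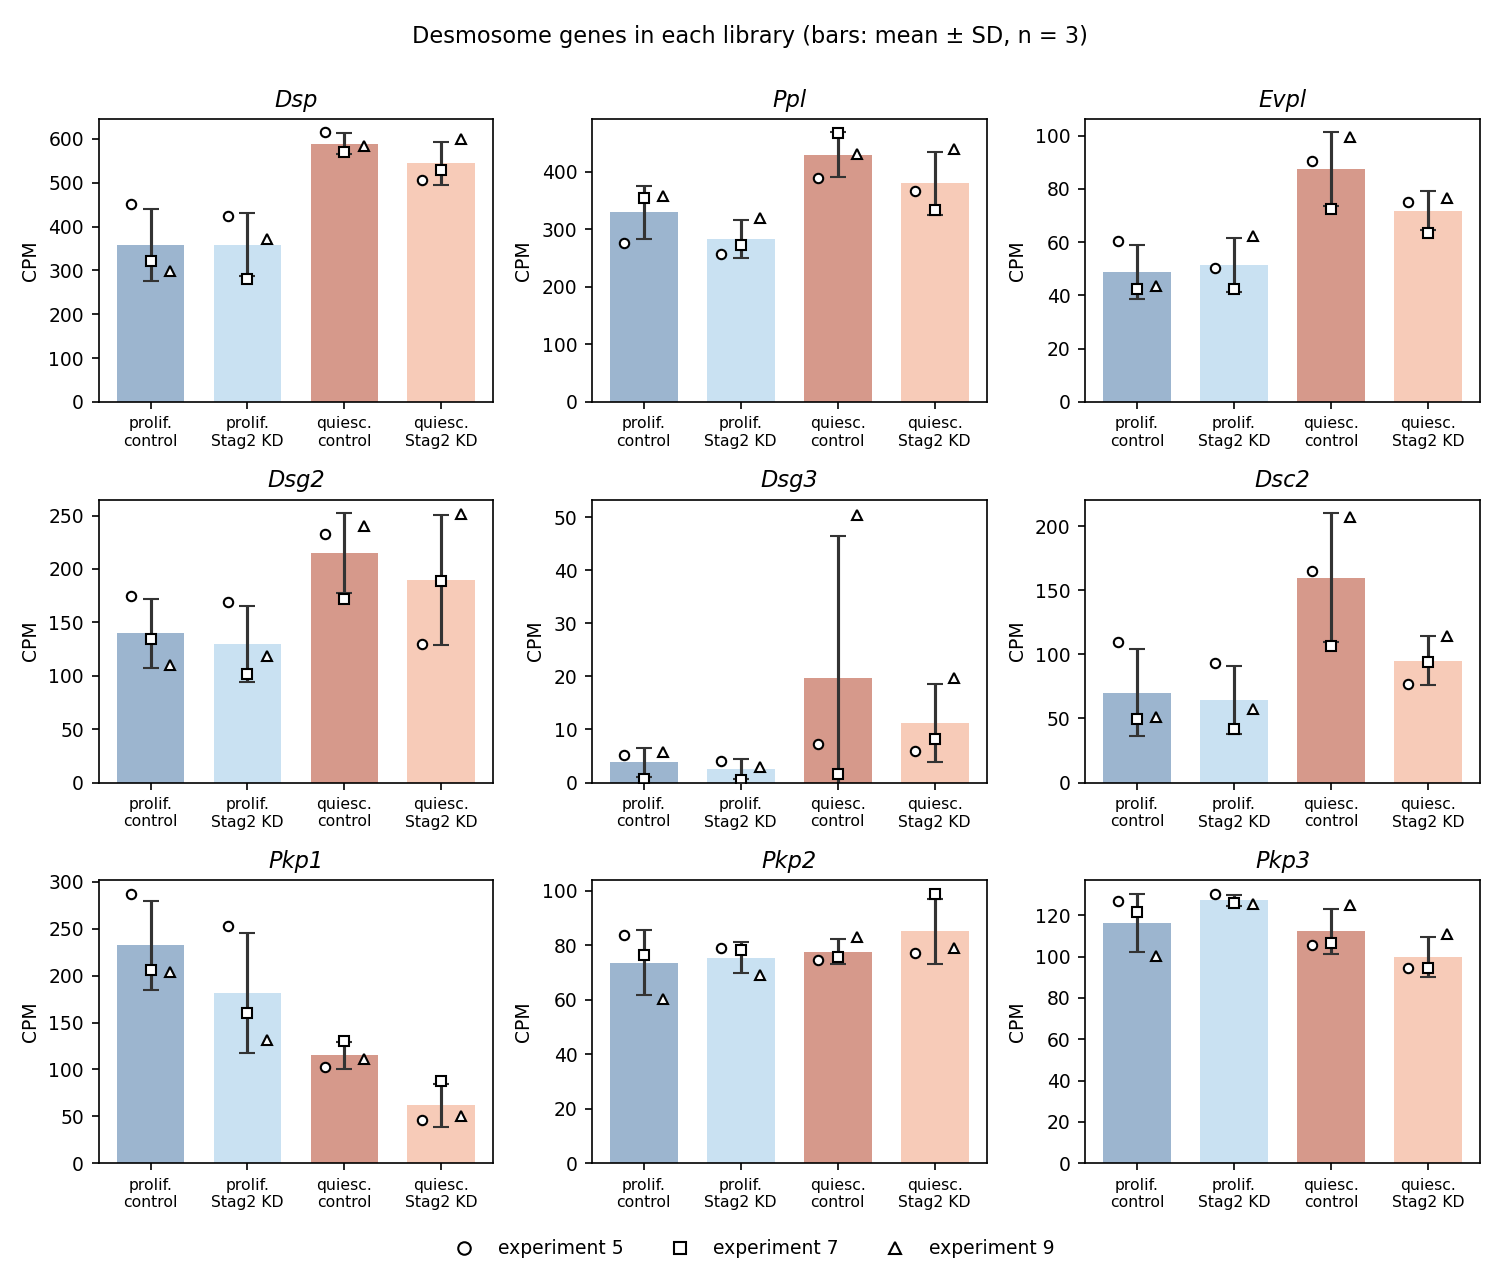
CPM (vertical axes, starting at 0 in each panel) of the desmosome genes in the 12 libraries, by group, with each point 1 library marked by its experiment and bars for the mean and SD of 3. Dsp lies between 506 and 615 CPM in the 6 quiescent libraries and between 281 and 452 CPM in the 6 proliferating ones, and the Dsg3 error bar of quiescent control cells runs below 0 and is cut at the axis.

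Among the plakins, Dsp, the keratin linker, stood at 452, 322 and 299 CPM in proliferating control cells of experiments 5, 7 and 9. In quiescent control cells it stood at 615, 569 and 584 CPM. The groups did not overlap, and the proliferating library of experiment 5 was the highest of its group. In edgeR the log2 fold change came to 0.72 (SE 0.18, adjusted p 0.0185 in edgeR). Within experiments 5, 7 and 9 the differences were 0.44, 0.82 and 0.96 in log2 CPM, a rise in 3 of 3. Dsp was no longer called without proliferating control of experiment 7 (adjusted p 0.0781 in edgeR) or 9 (0.0728), or without quiescent control of experiment 5 (0.0528).

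Evpl, the envoplakin gene, was 60.3, 42.6 and 43.5 CPM in proliferating and 90.7, 72.4 and 99.4 CPM in quiescent control cells. Every quiescent library was above every proliferating one, with a log2 fold change of 0.84 (SE 0.19, adjusted p 0.00953 in edgeR), and the differences within experiments were 0.59, 0.76 and 1.19 in log2 CPM. Evpl was the member that stayed called in all 12 fits that left out 1 library, with edgeR adjusted p from 0.00435 to 0.0467. Ppl, the gene of its partner periplakin, was 275, 354 and 357 CPM in proliferating and 389, 467 and 431 CPM in quiescent control cells. The groups did not overlap, yet the log2 fold change of 0.38 (SE 0.15) had an edgeR adjusted p of 0.0985. With the experiment as a block it was 0.39 with an edgeR adjusted p of 0.0285, and the differences within experiments were 0.50, 0.40 and 0.27 in log2 CPM.

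Among the cadherins, Dsc2, the desmocollin of simple and stratified epithelia, was 109.7, 49.5 and 51.4 CPM in proliferating control cells. In quiescent control cells it was 165, 107 and 207 CPM. The ranges overlapped, because the quiescent library of experiment 7 was just below the proliferating library of experiment 5. On the log2 scale Dsc2 rose by 1.19 (SE 0.37, adjusted p 0.0447 in edgeR), and the differences within experiments were 0.59, 1.11 and 2.01 in log2 CPM. This call rested on few libraries: 8 of the 12 fits that left out 1 library lost it. Without proliferating control of experiment 7 or 9 the edgeR adjusted p was 0.155 or 0.149, and without quiescent control of experiment 5 or 9 it was 0.0996 or 0.138. Without proliferating knockdown of experiment 9 it was 0.0538, and without quiescent knockdown of experiment 5, 7 or 9 it was 0.0561, 0.0577 or 0.0560. A fit to only the 6 control libraries gave an edgeR adjusted p of 0.0740.

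Dsg2, the widely expressed desmoglein, was 175, 134 and 110.2 CPM in proliferating and 232, 172 and 240.3 CPM in quiescent control cells. The quiescent library of experiment 7 was just under the proliferating library of experiment 5. Its log2 fold change of 0.62 (SE 0.27) did not pass the test (edgeR adjusted p 0.125, and 0.0872 with the experiment as a block). The differences within experiments were 0.41, 0.36 and 1.12 in log2 CPM.

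Dsg3, the desmoglein of basal layers of stratified epithelia, was 5.11, 0.693 and 5.74 CPM in proliferating and 7.31, 1.59 and 50.5 CPM in quiescent control cells. The quiescent library of experiment 9 stood far above all others. The log2 fold change of 2.36 (SE 1.13, adjusted p 0.160 in edgeR) dropped to 0.21 without that library (edgeR adjusted p 0.912). Dsc3, the desmocollin that accompanies Dsg3 in basal layers, had 6 counts in all 12 libraries together, and no library held more than 2. The limit that a count of 0 allows, 3 counts, corresponds to between 0.168 and 0.184 CPM in the libraries with 0 counts of Dsc3. Both this limit and sampling intervals cover counting error only.

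Among the plakophilins, Pkp1, which in skin is most abundant in the upper layers and clusters desmosomal proteins, was 287, 206 and 204 CPM in proliferating control cells. In quiescent control cells it was 102, 131 and 111 CPM. Every quiescent library was below every proliferating one, at a log2 fold change of -1.02 (SE 0.28, adjusted p 0.0286 in edgeR), and the differences within experiments were -1.49, -0.66 and -0.87 in log2 CPM. Pkp1 lost its call without proliferating control of experiment 5 or 7 (edgeR adjusted p 0.0683 or 0.0542) and without quiescent control of experiment 5 or 9 (0.0986 or 0.0797).

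Pkp2, the plakophilin of simple epithelia and heart muscle, was 83.7, 76.4 and 60.4 CPM in proliferating and 74.5, 75.6 and 82.8 CPM in quiescent control cells. The fitted log2 difference was 0.08 (SE 0.14, 95% interval -0.23 to 0.39, edgeR adjusted p 0.731). Pkp3, found in most desmosome-bearing epithelia, was 127, 122 and 100.3 CPM in proliferating and 106, 106 and 125 CPM in quiescent control cells. The fitted difference was -0.05 (SE 0.12, 95% interval -0.32 to 0.22, edgeR adjusted p 0.806). The groups overlapped for both genes, and the 95% intervals allow changes of up to 0.39 for Pkp2 and -0.32 for Pkp3 in log2 units.

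**Figure D2:**
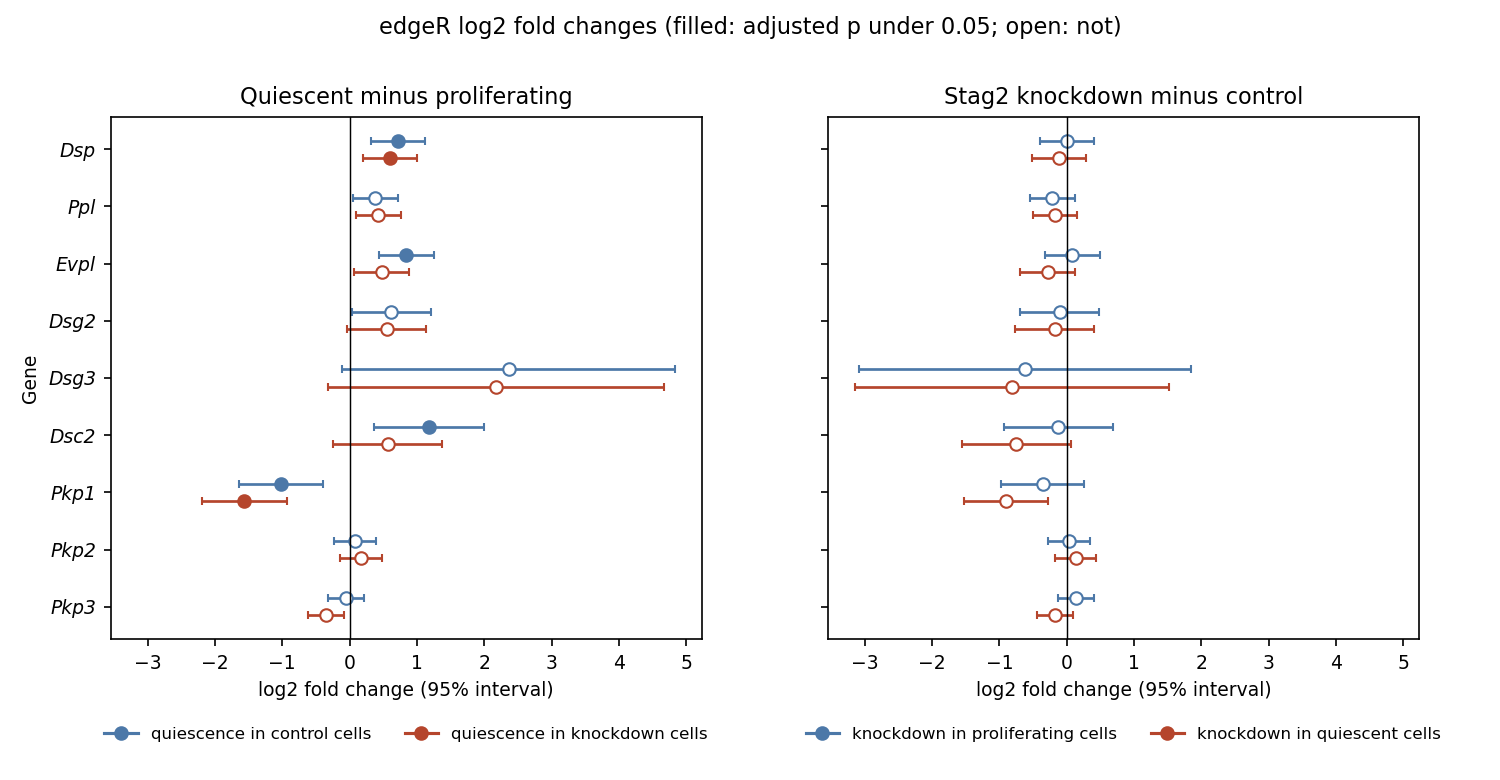
Log2 fold changes with 95% intervals (horizontal axes) of the 9 tested desmosome genes (vertical axis), quiescent minus proliferating on the left and Stag2 knockdown minus control on the right, filled where the edgeR adjusted p is under 0.05. On the left Dsp (0.72 and 0.60) and Pkp1 (-1.02 and -1.56) are filled in both hairpins, and on the right no symbol is filled.

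The same comparison was made between quiescent and proliferating knockdown cells. Dsp rose 1.52-fold and Pkp1 fell to 0.339 of its proliferating level, and the other 7 tested members did not pass the test. Of the 9 tested members, 1 was called higher, where 7.59% of all tested genes were, and 1 lower, where 10.8% were. The median log2 fold change of the members was 0.48, beside 0.0045 for all tested genes. With the experiment as a block 4 members were called higher (Dsp, Dsg3, Ppl and Evpl) and 2 lower (Pkp1 and Pkp3), and in that fit 15.9% of all genes were higher and 17.2% lower.

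Dsp was 423, 281 and 371 CPM in proliferating and 506, 529 and 599.5 CPM in quiescent knockdown cells, with no overlap. On the log2 scale it rose by 0.60 (SE 0.18, adjusted p 0.0414 in edgeR), and the differences within experiments were 0.26, 0.91 and 0.69 in log2 CPM. The call was near the threshold, and it was lost with no filter on low counts (edgeR adjusted p 0.0559), with only the 6 knockdown libraries (0.0550) and in 9 of the 12 fits that left out 1 library. Without proliferating knockdown of experiment 7 or 9 the edgeR adjusted p was 0.147 or 0.0854, and without quiescent knockdown of experiment 5, 7 or 9 it was 0.0715, 0.0633 or 0.139. Without proliferating control of experiment 7 it was 0.0542, and without quiescent control of experiment 5, 7 or 9 it was 0.0509, 0.0507 or 0.0529.

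Pkp1 was 253, 160.5 and 131 CPM in proliferating and 45.9, 87.9 and 50.7 CPM in quiescent knockdown cells. All 3 quiescent libraries were below all 3 proliferating ones, a log2 fold change of -1.56 (SE 0.29, adjusted p 0.00427 in edgeR), and the differences within experiments were -2.46, -0.87 and -1.37 in log2 CPM. Pkp1 stayed called in all 12 fits that left out 1 library, with edgeR adjusted p from 0.00224 to 0.0257.

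Ppl was 256, 273 and 319 CPM in proliferating and 366, 334 and 439.9 CPM in quiescent knockdown cells, with no overlap. For Ppl the log2 fold change was 0.43 (SE 0.15, adjusted p 0.0759 in edgeR, and 0.0206 with the experiment as a block). Evpl was 50.2, 42.2 and 62.3 CPM in proliferating and 75.3, 63.5 and 76.8 CPM in quiescent knockdown cells, again with no overlap. For Evpl it was 0.48 (SE 0.19, adjusted p 0.0977 in edgeR, and 0.0187 with the block). Both plakin genes were thus called in knockdown cells by the fit that takes up the experiment, and Ppl also by the DESeq2 Wald test (adjusted p 0.0332).

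Dsc2 was 93.3, 41.5 and 57.7 CPM in proliferating and 76.6, 94.4 and 114 CPM in quiescent knockdown cells. Dsg2 was 169.5, 102 and 118 CPM in proliferating and 129.5, 189 and 251 CPM in quiescent knockdown cells. Both cadherins were lower in the quiescent library of experiment 5 than in its proliferating partner and higher in experiments 7 and 9. The differences within experiments were -0.28, 1.18 and 0.99 in log2 CPM for Dsc2 and -0.39, 0.90 and 1.08 for Dsg2. Neither passed the test, with log2 fold changes of 0.57 for Dsc2 (SE 0.37, adjusted p 0.313 in edgeR) and 0.55 for Dsg2 (SE 0.27, adjusted p 0.178 in edgeR).

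Dsg3 was 4.14, 0.477 and 2.87 CPM in proliferating and 5.94, 8.23 and 19.7 CPM in quiescent knockdown cells. All 3 quiescent libraries were above all 3 proliferating ones, with a log2 fold change of 2.17 (SE 1.14, adjusted p 0.208 in edgeR). With the experiment as a block it was 2.40 (SE 0.79, adjusted p 0.0397 in edgeR). Pkp3 was 130.3, 126 and 126 CPM in proliferating and 94.4, 94.3 and 111 CPM in quiescent knockdown cells, with no overlap. Its log2 fold change was -0.35 (SE 0.12, adjusted p 0.0700 in edgeR, with the block 0.0489, by the DESeq2 Wald test 0.0455, and 0.0460 without proliferating control of experiment 9). Pkp2 was 78.9, 78.3 and 69.0 CPM and 77.2, 98.8 and 78.9 CPM, a log2 fold change of 0.17 (SE 0.14, adjusted p 0.428 in edgeR).

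**Figure D3:**
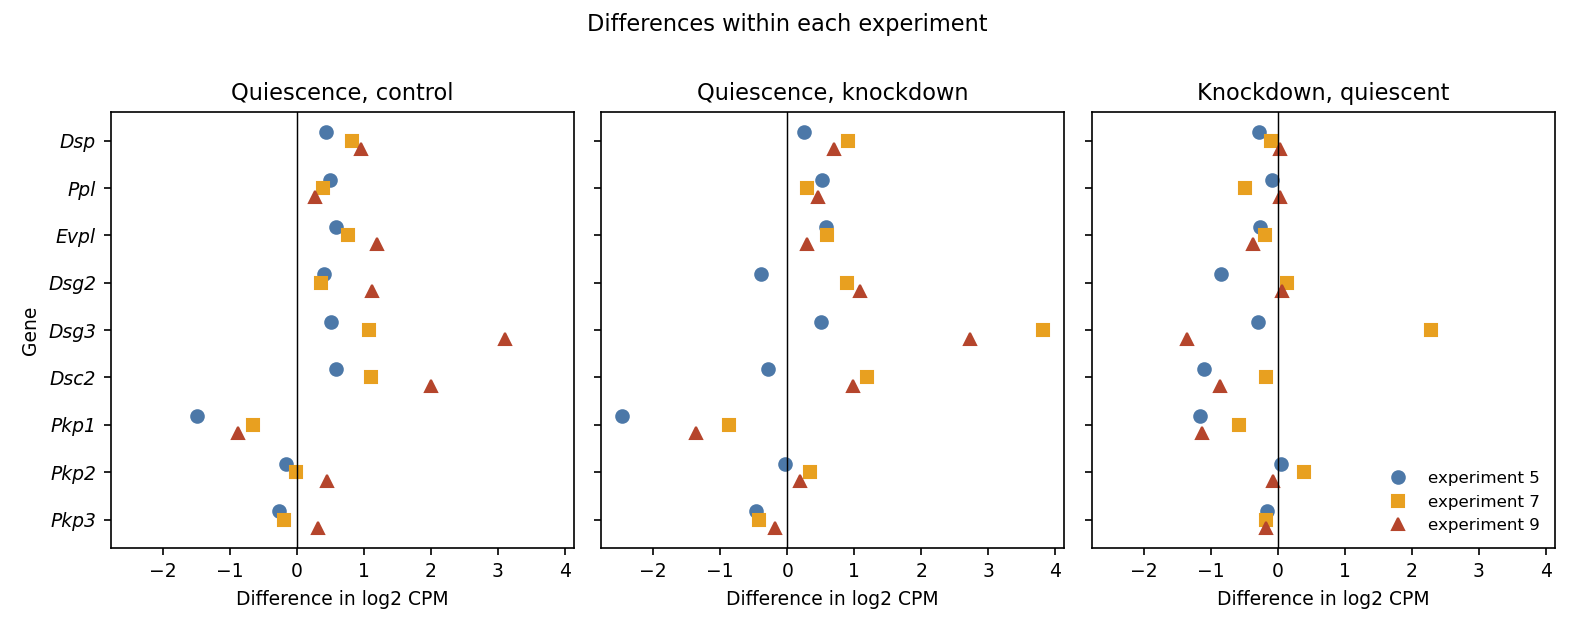
Difference in log2 CPM between quiescent and proliferating libraries of the same experiment, by hairpin, in the first and second panels, and between knockdown and control libraries of the quiescent state in the last (horizontal axes), for the 9 tested desmosome genes (vertical axis), with 1 symbol per experiment. Dsp, Ppl and Evpl lie above 0 and Pkp1 below 0 in all 6 pairs of states, while Dsg2 and Dsc2 lie below 0 in the knockdown pair of experiment 5 (-0.39 and -0.28).

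The next comparisons set Stag2 knockdown against control cells in each state. In proliferating cells 0 of the 9 tested members were called by edgeR, where 0.0242% of all tested genes were called with or without the experiment as a block. None had an unadjusted p under 0.05, and DESeq2 called 0. The log2 fold changes ran from -0.62 for Dsg3 (SE 1.13) to 0.13 for Pkp3 (SE 0.12), with a median of -0.11 beside -0.0022 for all tested genes. Leaving Dsg3 aside, the largest was that of Pkp1, -0.36 (95% interval -0.97 to 0.26, edgeR adjusted p 0.99982), with differences within experiments of -0.18, -0.36 and -0.64 in log2 CPM. Dsp averaged 358 ± 82.2 CPM (SD, n = 3) with the control hairpin and 358 ± 72.0 CPM with the other, and its 95% interval of -0.40 to 0.40 bounds the log2 difference that this design could not tell from 0.

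In quiescent cells 0 of the 9 members were called by edgeR, where 0.435% of all tested genes were called, and 3.55% with the experiment as a block, which also called 0 members. DESeq2 called 0. The median log2 fold change was -0.18, beside 0.0157 for all tested genes. Of the 9 values 8 were negative, where 5898 of all 12406 tested genes were. An unadjusted edgeR p under 0.05 was found for 1 member, Pkp1, and with the block for 2, Pkp1 and Dsc2. Of all 12406 tested genes, 1489 had such a p, and 2527 with the block, so these member counts do not set the members apart.

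Pkp1 was 102, 131 and 111 CPM in quiescent control and 45.9, 87.9 and 50.7 CPM in quiescent knockdown cells, so every knockdown library was below every control library. Its log2 fold change was -0.90 (SE 0.29, 95% interval -1.53 to -0.28), with an unadjusted p of 0.00881 and an adjusted p of 0.223 in edgeR. With the block the log2 fold change was -0.92 and the edgeR adjusted p 0.0786, and leaving out 1 library gave adjusted p from 0.0879 to 0.582. Within experiments the differences were -1.16, -0.57 and -1.13 in log2 CPM. Dsc2 was 165, 107 and 207 CPM in control and 76.6, 94.4 and 114 CPM in knockdown cells, with overlapping ranges. Its log2 fold change was -0.75 (SE 0.37, 95% interval -1.56 to 0.06, edgeR adjusted p 0.464, and 0.222 with the block), and the differences within experiments were -1.11, -0.18 and -0.86 in log2 CPM.

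The other members were closer to 0 or more variable. The plakins were at -0.11 for Dsp (SE 0.18), -0.18 for Ppl (SE 0.15) and -0.28 for Evpl (SE 0.18). Dsg2 was at -0.18 (SE 0.27), and Dsg3 at -0.81 (SE 1.07), which became 1.34 without quiescent control of experiment 9. Pkp2 was at 0.13 (SE 0.14) and Pkp3 at -0.17 (SE 0.12).

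Whether the knockdown changed the response to quiescence was tested as an interaction, the knockdown effect in quiescent minus that in proliferating cells. Stag2 itself stood at 0.208 of its control level in proliferating and 0.100 in quiescent cells. Its interaction was -1.05 (SE 0.26), with an unadjusted p of 0.00189 and an adjusted p of 0.99975 in edgeR, so the depth of knockdown may differ between the states. The edgeR test called 0 of 9 members, where 0% of all genes were called, with or without the experiment as a block, no member had an unadjusted p under 0.05 in either fit, and DESeq2 called 0 members. So the calls of Dsc2 and Evpl in control but not in knockdown cells, made without the block, are not shown to differ between hairpins. With the block Evpl was called in knockdown cells too (edgeR adjusted p 0.0187), and Dsc2 was not (0.108). The interaction was -0.62 for Dsc2 (95% interval -1.76 to 0.52), -0.55 for Pkp1 (-1.42 to 0.33), -0.36 for Evpl (-0.94 to 0.21) and -0.12 for Dsp (-0.68 to 0.45), all on the log2 scale.

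The make-up of each family was described per length, as CPM per kilobase of merged exons, and was given no test. Pkp1 made up 50.04% ± 3.5 (SD, n = 3) of plakophilin CPM per kb in proliferating control and 33.4% ± 3.5 in quiescent control cells. In knockdown cells it made up 41.5% ± 7.5 (SD, n = 3) and 21.6% ± 5.7. Pkp2, whose own CPM did not pass the test between states, went from 14.9% ± 0.99 to 21.2% ± 0.84 in control and from 16.7% ± 1.8 to 28.4% ± 1.7 in knockdown cells. Pkp3 held 35.1% ± 2.7 and 45.4% ± 2.8 in control and 41.8% ± 5.8 and 49.98% ± 7.0 in knockdown cells.

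Library by library, the share of Pkp1 was 53.0%, 46.1% and 51.0% in proliferating control and 32.1%, 37.4% and 30.7% in quiescent control cells. In proliferating knockdown cells it was 49.8%, 39.3% and 35.4%, and in quiescent knockdown cells 18.4%, 28.2% and 18.2%. The states did not overlap for either hairpin, and Pkp1 was the leading plakophilin in all 3 proliferating control libraries. In all 6 quiescent libraries Pkp3 led per kb of merged exons, and it also led in proliferating knockdown cells of experiments 7 (42.8%) and 9 (47.2%). Shares depend on gene length: with the length of the longest coding transcript, Pkp1 held 43.2% and 27.4% in proliferating and quiescent control cells, and Pkp2 held 21.9% and 29.7%. With that length Pkp2 (39.8%) and not Pkp3 (38.0%) led in the quiescent knockdown library of experiment 7. With no division by length Pkp2 (35.2%) led there too, and Pkp1 led in quiescent control of experiment 7 (41.8%, with Pkp3 at 34.0%) and in the quiescent control mean (37.7%, with Pkp3 at 36.9%). Undivided, Pkp1 also led in proliferating knockdown of experiments 7 (44.0%, with Pkp3 at 34.5%) and 9 (40.2%, with Pkp3 at 38.6%).

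**Figure D4:**
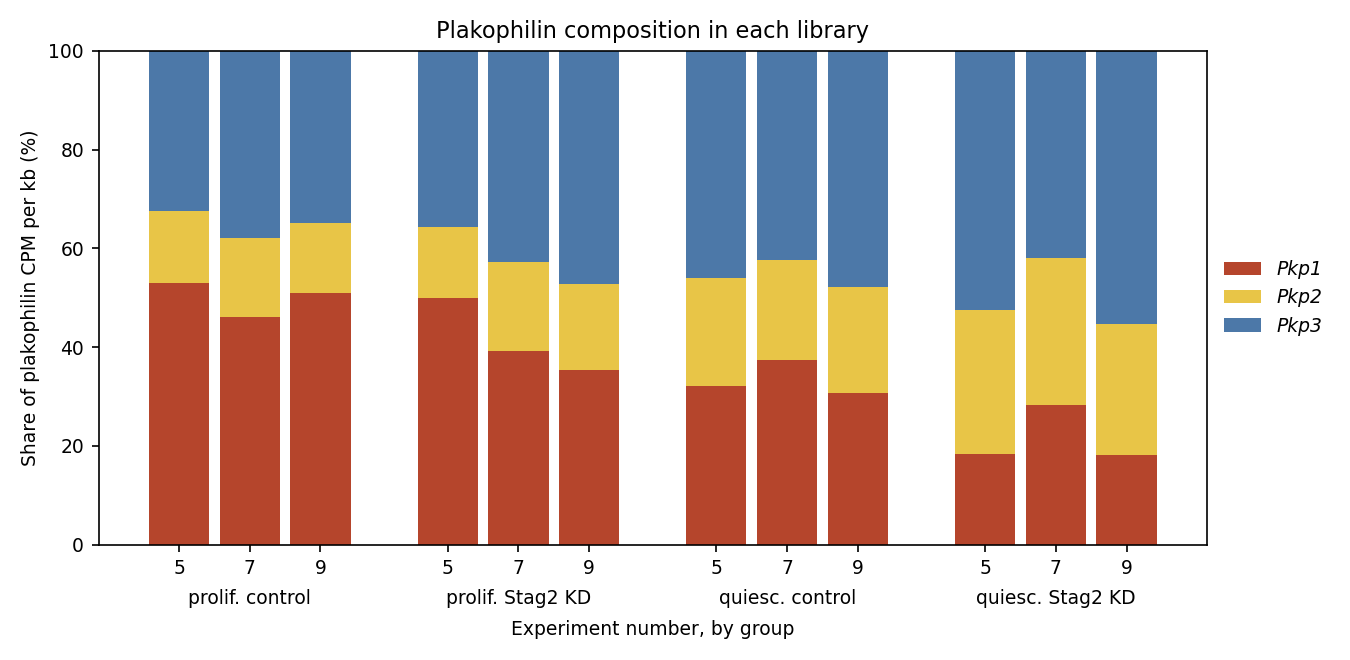
Share of plakophilin CPM per kb of merged exons (vertical axis, percent) held by Pkp1, Pkp2 and Pkp3 in each of the 12 libraries, ordered by group and experiment number. The Pkp1 part takes 46.1% to 53.0% in proliferating control libraries and 18.2% to 28.2% in quiescent knockdown libraries.

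In the other families 1 paralog dominated in every group. Dsg2 held 96.7% ± 2.6 (SD, n = 3) of the summed Dsg2 and Dsg3 level per kb in proliferating control and 91.8% ± 10.2 in quiescent control cells. In knockdown cells it held 97.9% ± 1.3 (SD, n = 3) and 93.8% ± 2.0. Dsc2 held at least 99.9% of the Dsc2 and Dsc3 level in each group mean. Ppl held 85.9% ± 4.4 (SD, n = 3) of the summed Ppl and Evpl level in proliferating control and 81.9% ± 3.3 in quiescent control cells, and 83.6% ± 1.8 and 83.0% ± 1.2 in knockdown cells.

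Ordered by level per length in proliferating control cells, Ppl (47.7 CPM per kb ± 6.74, SD, n = 3) and Pkp1 (46.3 ± 9.46) came first, then Dsp (37.0 ± 8.52) and Pkp3 (32.2 ± 3.91). Neighbours among these 4 overlapped in their library ranges. A lower set followed with Dsg2 (16.9 ± 3.94), Pkp2 (13.7 ± 2.23), Dsc2 (13.3 ± 6.49) and Evpl (7.64 ± 1.56), again with overlap between neighbours. Dsg3 (0.551 ± 0.394) and Dsc3 (0.0070 ± 0.012) were below all of these. Proliferating knockdown cells had the same 5 genes on top, in the order Ppl, Dsp, Pkp1, Pkp3 and Dsg2, of which Ppl to Pkp3 overlapped as neighbours.

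In quiescent control cells Ppl (62.3 CPM per kb ± 5.65, SD, n = 3) and Dsp (61.0 ± 2.39) led and overlapped, and both were above Pkp3 (31.1 ± 3.03) without overlap. Dsc2 (30.3 ± 9.56) and Dsg2 (26.0 ± 4.52) came next, and Pkp1 (22.9 ± 2.88) had moved to the seventh place when plakoglobin is included. In quiescent knockdown cells Dsp (56.4 ± 5.06) and Ppl (55.1 ± 7.89) led, and Pkp1 (12.2 ± 4.57) stood between Pkp2 (15.9 ± 2.24) and Evpl (11.3 ± 1.14), overlapping both. The place of Pkp2 depends on the gene model, since its merged exons span 5.36 kb and its longest coding transcript 2918 bases.

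**Figure D5:**
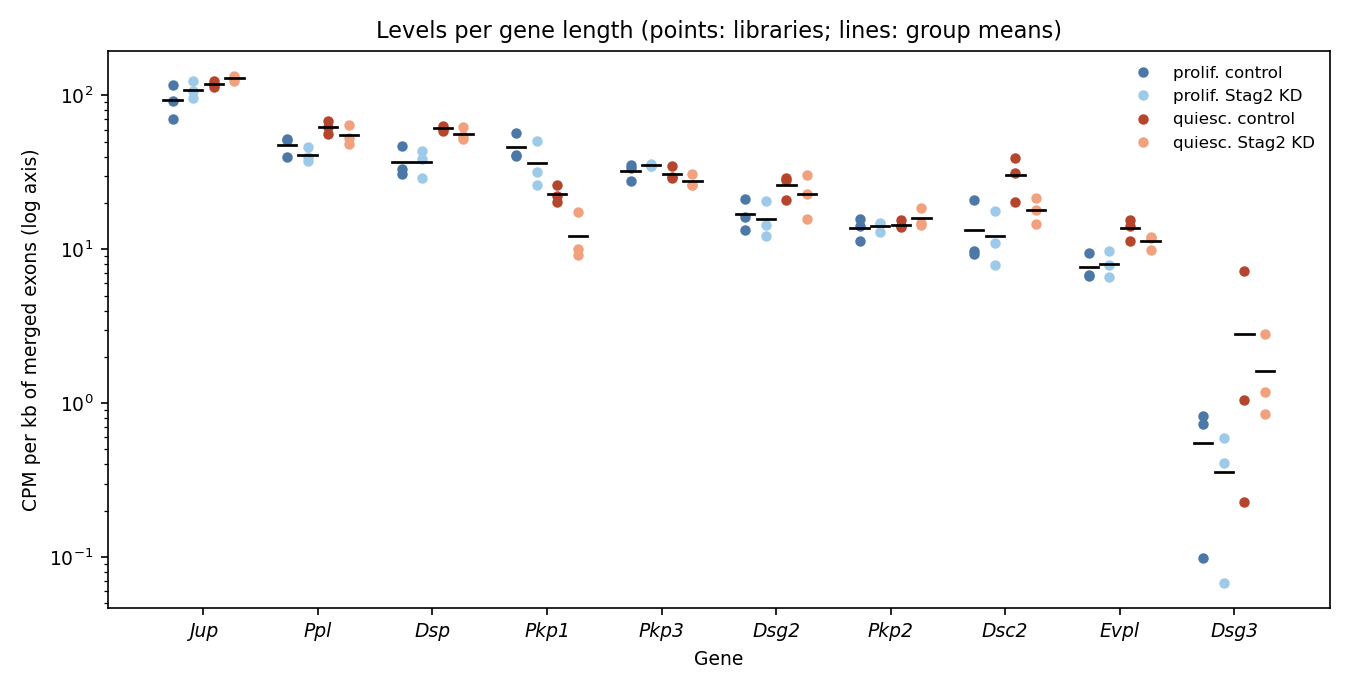
CPM per kb of merged exons (vertical log axis) of plakoglobin (Jup) and the 9 tested desmosome genes, with points for libraries and lines for the means of the 4 groups. Of the genes plotted, Jup is highest in every group, Ppl and Dsp lead the other genes in quiescent cells, and Pkp1 stands at 46.3 in proliferating control and 12.2 in quiescent knockdown cells.

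Other desmosome genes were counted from a list of 10, of which 5 passed the filter. In control cells 1 of the 5 was called higher with quiescence, where 8.33% of all tested genes were. It was Kazn, which encodes the desmosome-associated protein kazrin, a periplakin partner. Kazn was 26.3, 24.8 and 17.8 CPM in proliferating and 61.7, 60.7 and 31.2 CPM in quiescent control cells, with a log2 fold change of 1.16 (SE 0.30, adjusted p 0.0191 in edgeR). In knockdown cells it was 29.4, 25.6 and 15.4 CPM and 48.1, 43.8 and 34.1 CPM, a log2 fold change of 0.84 (SE 0.29, adjusted p 0.0700 in edgeR, and 0.000743 with the experiment as a block). The median log2 fold change of the list was -0.10 in control and 0.24 in knockdown cells. In either knockdown contrast edgeR called 0 of the 5, where 0.0242% of all tested genes were called in proliferating and 0.435% in quiescent cells. Without the block none of the 5 had an unadjusted p under 0.05.

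Jup, the gene of plakoglobin, the armadillo protein shared by desmosomes and adherens junctions, was above all 10 members in level per length, from 92.9 to 129 CPM per kb over the group means. It was 598 CPM ± 146 (SD, n = 3) in proliferating and 762 CPM ± 34.0 in quiescent control cells, a log2 difference of 0.35 (SE 0.17, adjusted p 0.169 in edgeR). Pkp4, a plakophilin relative found mainly at adherens junctions, had a log2 fold change of -0.27 in control and -0.30 in knockdown cells (edgeR adjusted p 0.0864 and 0.0625, and 0.0300 and 0.0201 with the block). Perp, a membrane protein needed for desmosome assembly in skin, was at -0.10 and -0.28 (edgeR adjusted p 0.686 and 0.252). Cdsn, the corneodesmosin of cornified layers, was at -2.35 and 0.62 (edgeR adjusted p 0.103 and 0.674), and ranged from 3.48 to 112 CPM within proliferating control cells. Its interaction was 2.98 (SE 1.31), with an unadjusted p of 0.0434 and an adjusted p of 0.99975 in edgeR. With the block its knockdown log2 fold change in proliferating cells was -1.60 (unadjusted p 0.0370 and adjusted p 0.948 in edgeR). The skin cadherins Dsg1a, Dsg1b, Dsg1c, Dsg4 and Dsc1 did not pass the filter.

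Hemidesmosomes, which anchor basal cells to the matrix below, served as a comparison list of 6 genes, all tested. In control cells 0 were called by edgeR, where 8.33% of all tested genes were called higher and 11.7% lower. The median log2 fold change of the 6 was -0.32. An unadjusted edgeR p under 0.05 was found for 4314 of all 12406 tested genes. It was found for 3 of the 6: Itga6 and Plec, both lower, and Cd151, higher. The block called 2 lower, Itga6 and Plec, where 18.5% of all tested genes were. In knockdown cells 10.8% of all tested genes were called lower, and with the block 17.2% were lower and 15.9% higher. Of the 6, 2 fell, the 2 chains of the laminin receptor: Itga6 by 0.85 and Itgb4 by 0.89 on the log2 scale (edgeR adjusted p 0.0330 and 0.0410). The block called these and Plec lower (edgeR adjusted p 0.0220) and Col17a1, the gene of a transmembrane collagen, higher by 2.05 (edgeR adjusted p 0.00440). The median of the 6 was -0.67 there, and that of the desmosome members was 0.48. Between hairpins edgeR called 0 of the 6 in either state, where 0.0242% of all tested genes were called in proliferating and 0.435% in quiescent cells. An unadjusted edgeR p under 0.05 was found for 228 of all 12406 tested genes in proliferating and 1489 in quiescent cells. Among the 6 it was found for 0 in proliferating and 1 in quiescent cells. That 1 was Col17a1, at 0.169 ± 0.0946 CPM (SD, n = 3) in quiescent control and 2.39 ± 1.53 CPM in quiescent knockdown cells, a log2 fold change of 3.78 (SE 0.77, adjusted p 0.0656 in edgeR, and 0.00599 with the block).

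Of 7 transcription factor genes linked to desmosome genes or epithelial differentiation, 6 were tested. In control cells 8.33% of all tested genes were called higher. Of the 6, 2 rose, Grhl1 by 1.12 (edgeR adjusted p 0.00284) and Gata3 by 1.47 (edgeR adjusted p 0.0263). Grhl1 is a grainyhead-like factor known to act on desmosomal cadherin genes in skin, and Gata3 is a luminal urothelial factor. In knockdown cells Grhl1 rose by 0.85 (edgeR adjusted p 0.0131), and Gata3 had a log2 fold change of 0.99 (edgeR adjusted p 0.107, and 0.0412 with the block). Of all tested genes 7.59% were called higher there, and 15.9% with the block. Grhl1 was 11.6 CPM ± 1.60 (SD, n = 3) in proliferating and 25.1 CPM ± 4.64 in quiescent control cells. Grhl2, Grhl3, Klf4 and Klf5 were not called in either hairpin. In the knockdown contrasts edgeR called 0 of the 6, with or without the block. Of all tested genes 0.0242% were called in proliferating cells in both fits, and 0.435% in quiescent cells (3.55% with the block). In quiescent cells Grhl1 had a knockdown log2 fold change of -0.66 (SE 0.19), with differences within experiments of -0.62, -0.66 and -0.71 in log2 CPM. Its unadjusted p was 0.00556 and its adjusted p 0.186 in edgeR, and 0.0593 with the block. Of all 12406 tested genes, 1489 had an unadjusted p under 0.05 in that contrast.

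Among 6 keratins of the filaments that desmosomes anchor, the basal pair fell with quiescence. Of all tested genes 11.7% were called lower in control and 10.8% in knockdown cells. On the log2 scale Krt14 fell by 4.16 in control and fell by 2.86 in knockdown cells, and Krt5 fell by 2.03 and fell by 1.45 (edgeR adjusted p 0.000601, 0.00371, 0.0130 and 0.0477). Their levels were low throughout, with Krt5 from 0.414 to 6.60 CPM and Krt14 from 0.184 to 10.6 CPM over the 12 libraries. Krt19, a keratin of simple epithelia, rose by 1.01 in knockdown cells (edgeR adjusted p 0.0210) and had a log2 fold change of 0.58 in control cells (edgeR adjusted p 0.132, and 0.00828 with the block). The block also called Krt7 lower in control cells (edgeR adjusted p 0.0425) and Krt8 and Krt18 higher in knockdown cells (edgeR adjusted p 0.0111 and 0.0431). In that fit 16.8% of all tested genes were higher and 18.5% lower in control cells, and 15.9% were higher in knockdown cells. Krt8, a keratin of simple epithelia, was 4600 CPM ± 1239 (SD, n = 3) and 5903 CPM ± 1719 in proliferating and quiescent control cells, a log2 fold change of 0.36 (edgeR adjusted p 0.322). In the knockdown contrasts edgeR called 0 keratins, with or without the block, and in proliferating cells 0 had an unadjusted p under 0.05. Of all tested genes 0.0242% were called in proliferating cells in both fits, and 0.435% in quiescent cells (3.55% with the block). In quiescent cells all 6 values were positive, with a median log2 fold change of 0.56, beside 0.0157 for all tested genes. An unadjusted edgeR p under 0.05 was found there for 1, Krt8, and with the block for 4, Krt5, Krt8, Krt18 and Krt19. Of all 12406 tested genes, 1489 had such a p, and 2527 with the block.

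Over the 12 libraries, Dsp tracked Evpl (Pearson r 0.91 of log2 CPM), Dsc2 (0.90) and Dsg2 (0.88), and Dsg2 tracked Dsc2 (0.92). The r of Dsp with Pkp1 was -0.58 over the libraries and 0.41 for deviations from the group means. Such deviations gave 0.69 for Dsp with Evpl, 0.87 for Dsp with Dsc2, 0.87 for Dsg2 with Dsc2, 0.80 for Dsp with Dsg2 and -0.63 for Pkp1 with Ppl. These are descriptions over libraries that share experiments and states. Of all tested genes outside the list, Wdr81 (r 0.97), Cyp4v3 (0.97) and Plekha1 (0.97) were most like Dsp over the 12 libraries. Wdr81 ranged from 53.5 to 110.3 CPM and Plekha1 from 63.5 to 137 CPM.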

How the data were processed

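Per the labels' protocols, polyadenylated RNA with ERCC spike-ins was sequenced with a stranded dUTP kit in 12 NU1 libraries. The authors deposited raw counts per gene symbol in 1 table, with no normalization. The submitters' processing notes name Bowtie, TopHat, HTSeq, DESeq2 and mm10. Their settings, the annotation and the use of strand are not given in the sources used here.

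The tests used edgeR 4.0.16 in R 4.3.3 (filterByExpr with a minimum count of 10, TMM, glmQLFit on 4 group means over all 12 libraries, glmQLFTest, Benjamini-Hochberg adjustment over 12406 genes). Log2 CPM used a prior count of 2. Replicates of a group differed by a chi-square per degree of freedom of 36.6 to 99.7, and none were identical. Deviations from group means correlated between libraries of the same experiment (mean r 0.526 over 18 pairs, from 0.225 to 0.789). Between experiments the mean r was -0.259 over 36 pairs, from -0.612 to 0.312. Deviations within a group sum to 0, so a positive mean within experiments forces a negative one between them, and the second value is no separate evidence. The experiment number is the batch in the labels, which is where the pairing comes from. Alternatives were a replicate block, the Wald test of DESeq2 1.42.0, its size factors in edgeR, all genes unfiltered, only genes averaging 50 counts or more, the libraries of a comparison only, and leaving out each library. Exon lengths came from GENCODE M21. The edgeR step was tested on simulated counts with the same spread for every gene and no effect of experiment. These libraries do share experiments, so that run checked the code and not the calls reported here.

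Named genes are Stag2, all 10 members, fixed lists of other desmosome, hemidesmosome, regulator and keratin genes, and the 3 tested genes most correlated with Dsp. The members and lists were chosen with earlier results of these data known.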

Additional observations from a re-analysis of the deposited data

Results flagged for a closer look

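All tested named genes were searched for knockdown or quiescence effects of opposite sign in every experiment, and for a called interaction. Only Pkp3 was flagged, and how often such a pattern arises among that many genes without a real difference was not tested. The knockdown effect on Pkp3 had opposite signs in the 2 states in every experiment. In proliferating cells the knockdown library was above its control by 0.04, 0.05 and 0.33 in log2 CPM in experiments 5, 7 and 9. In quiescent cells the differences were -0.16, -0.17 and -0.17. The difference between the states was -0.30 (SE 0.17, 95% interval -0.68 to 0.08), with an unadjusted p of 0.111 and an adjusted p of 0.99975 in edgeR, so it did not pass the test.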

How the results depend on the processing

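In knockdown cells, the number of desmosome genes called with quiescence moved from 2 to 6 with the replicate block, to 4 with the DESeq2 Wald test, and to 1 with no filter or with the libraries of the comparison only. In control cells it stayed between 3 and 5 under those settings. The share of all tested genes called in knockdown cells moved too, from 7.59% higher and 10.8% lower to 15.9% and 17.2% with the block. In control cells it moved from 8.33% higher and 11.7% lower to 16.8% and 18.5%. Shares of all genes under the other settings are not given here, so these counts do not set the members apart. Leaving out 1 library gave 1 to 4 calls of members in control and 1 to 3 in knockdown cells. Only Evpl and Pkp1 respectively were called in all 12 such fits. In control cells the count was 1 without proliferating control of experiment 7 or quiescent control of experiment 5. In knockdown cells it was 1 in the 9 fits that lost the call of Dsp. For both knockdown contrasts and the interaction the count stayed at 0 in each setting run, and the fit to the libraries of the comparison only was not run for the interaction, which uses all 12. Near-zero values changed sign: Dsp with knockdown in proliferating cells was -0.0024 with DESeq2 size factors and with the DESeq2 Wald test and -0.0044 with no filter. The Dsg3 interaction was 0.53 with the replicate block.

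Of 600 gene values with 1 library left out, 32 changed sign, none of them called. For knockdown in proliferating cells these were Dsp (-0.14 to 0.21), Dsg2 (-0.35 to 0.088), Dsc2 (-0.50 to 0.35), Pkp2 (-0.087 to 0.14) and Evpl (-0.085 to 0.26). For knockdown in quiescent cells they were Dsg2 (-0.43 to 0.033) and Dsg3 (-1.48 to 1.34), and for quiescence in control cells Pkp2 (-0.046 to 0.18) and Pkp3 (-0.15 to 0.016). For the interaction they were Dsp (-0.32 to 0.020), Dsg2 (-0.33 to 0.17), Dsg3 (-0.86 to 1.97), Pkp2 (-0.028 to 0.22) and Ppl (-0.076 to 0.15).

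With raw counts not divided by length, Pkp1 held 54.9% (proliferating control) and 37.7% (quiescent control). In proliferating control, proliferating knockdown, quiescent control and quiescent knockdown cells Pkp2 then held 17.4%, 19.9%, 25.5% and 34.5%, and Pkp3 27.7%, 33.8%, 36.9% and 41.0%. With the longest coding transcript, an alternative chosen after seeing the data, Pkp1 held 43.2% and 27.4%, Pkp2 21.9%, 24.0%, 29.7% and 38.0%, and Ppl 84.4% in quiescent knockdown cells. The cause of these changes other than the length used was not tested. With 3 libraries a group, 1 hairpin and 1 cell line, counting error is small for every member but Dsg3 and Dsc3.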
